A study of Homo sapiens with 6 samples.

Results

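The kinesin motor genes were examined in H1299, an established line of human non-small cell lung carcinoma, exposed to AVJ16, which the study describes as an inhibitor of the RNA-binding protein IGF2BP1. Wild-type cells of this 1 line received AVJ16 at 1.5 µM or its solvent DMSO for 48 h, and poly(A) RNA of 3 libraries in each group was sequenced. The members were the genes whose symbol is KIF followed by a number and at most 1 letter from A to C, or KIFC followed by a number. The rule used names and no measured value. It found 40 of the 22004 genes in the table, which were divided by their textbook roles into 13 mitotic kinesins, 15 transport kinesins and 12 other kinesins. Libraries A, B and C are the DMSO group and libraries D, E and F the AVJ16 group.

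Kinesins are motor proteins that hydrolyse ATP to walk along microtubules or, in some subfamilies, to take microtubules apart. Mitotic kinesins build the spindle, move chromosomes and complete cell division, and their mRNAs are made mainly in G2 and mitosis. Transport kinesins carry vesicles, organelles, mRNAs and ciliary components, mostly towards the microtubule plus end. The remaining members act in cilia, in Hedgehog signalling or on microtubule growth, or have lost motor activity.

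Libraries held 19353830 to 30253721 counts. Levels are given as CPM (counts of a gene relative to the library total, scaled by the trimmed mean of M-values, TMM), and a log2 fold change is AVJ16 against DMSO. Every adjusted p comes from edgeR's two-sided quasi-likelihood test with Benjamini-Hochberg adjustment over all 16330 genes tested, and a gene was said to rise or fall when it was under 0.05. The biological coefficient of variation over all genes was 13.5%. The line expressed the keratins KRT8 and KRT18, at 289 to 655 CPM, and the mesenchymal filament gene VIM, at 5362 to 7571 CPM. The epithelial adhesion genes EPCAM and CDH1 and the keratin KRT19 were near 0, with the highest value of CDH1 at 1.597 CPM, so the epithelial markers were partly absent. The alveolar genes NAPSA, SFTPB and NKX2-1 did not exceed 1.11 CPM, and the endothelial marker PECAM1 did not exceed 0.274 CPM. Of these markers VIM rose (log2 fold change 0.39, adjusted p = 0.0449), CDH1 fell from at most 1.597 to at most 0.436 CPM (adjusted p = 0.00478), and the fibroblast collagen COL1A1 fell, with 4.04 to 5.32 CPM in DMSO and 2.21 to 3.45 CPM in AVJ16 (adjusted p = 0.0293), and their part in the kinesin results was not tested. PTPRC, ALB, HBB and SFTPC were not analysed here. Library D differed from the other 5 in that mitochondrially encoded mRNAs took 11.9% of its counts, against 5.13% to 6.66%, and calls of kinesins that change without it are given both ways.

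Promoter sequences are shown first, because most of the mitotic kinesins, 10 of 13, held a motif there that the rule did not use. RefSeq windows on GRCh38.p14, from 250 bases before to 50 bases after each annotated start, were available for 33 of the 40 members. KIF26B, whose fall was the largest of the family, had no window. The cell cycle homology region, spelled TTTGAA, is known as an element bound by the DREAM complex that keeps G2 and mitosis genes off outside those phases. Searched on both strands, it was present in the windows of 10 of 13 mitotic kinesins (76.9%), of 1 of 11 transport kinesins (KIF5B, 9.09%) and of 0 of 9 other kinesins. Over all 27305 genes with a window, 18.2% held it. The windows around the motif are printed 5′ to 3′ on the strand that reads TTTGAA, 30 bases each, with the motif in capitals.
KIF11 (chr10:92593090-92593119, minus strand): tcggcgcctcaaTTTGAAaaagagacagag
KIF14 (chr1:200620733-200620762, plus strand): agaaggccgcaaTTTGAAtgggcgccccgc
KIF15 (chr3:44761747-44761776, minus strand): gatggccgcaaaTTTGAAtttggcgcttgg
KIF18A (chr11:28108149-28108178, minus strand): aagtggcttgggTTTGAAtattgtggttga
KIF18B (chr17:44947754-44947783, minus strand): ccgcccggctaaTTTGAAcgcaaggcgccg
KIF20B (chr10:89701602-89701631, plus strand): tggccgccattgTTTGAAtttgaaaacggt
KIF23 (chr15:69414282-69414311, plus strand): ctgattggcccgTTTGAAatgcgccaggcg
KIF4A (chrX:70290058-70290087, plus strand): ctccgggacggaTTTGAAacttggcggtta
KIF4B (chr5:155013746-155013775, plus strand): ctctgggagggaTTTGAAacttggcggtta
KIFC1 (chr6:33391815-33391844, minus strand): acacccgccactTTTGAAttccaacggcca
In KIF20B the same 6 bases follow directly a second time, in lower case. The promoters of KIF4A and KIF4B, near-identical gene copies, both carry the motif in similar surrounding sequence. KIF2C, KIF20A and KIF22 were the mitotic kinesins without a match to these exact letters. Other spellings of the element were not searched, so its absence from a window was not shown. A match describes letters in a window and is not evidence of binding.

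The CCAAT box, spelled CCAAT and known as the site of NF-Y, was present in 11 of 13 mitotic kinesins, 4 of 11 transport kinesins and 3 of 9 other kinesins, against 39.7% of all genes. Both motifs occurred together in 9 mitotic kinesins (69.2%), in KIF5B and in 7.26% of all genes, and they overlapped in 0 kinesin windows. The GC box, spelled GGGCGG, was present in 12 of 13 mitotic kinesins and in all transport and other kinesins with a window (11 of 11 and 9 of 9), against 48.3% of all genes. The whole window of KIF23 is shown as the mitotic example, with both motifs in capitals. It holds a CCAAT box (read as ATTGG on this strand) a few bases from TTTGAA. The window of KIF2C, the mitotic kinesin that rose, follows and holds neither TTTGAA nor CCAAT on either strand.
KIF23 (chr15:69414099-69414398, plus strand): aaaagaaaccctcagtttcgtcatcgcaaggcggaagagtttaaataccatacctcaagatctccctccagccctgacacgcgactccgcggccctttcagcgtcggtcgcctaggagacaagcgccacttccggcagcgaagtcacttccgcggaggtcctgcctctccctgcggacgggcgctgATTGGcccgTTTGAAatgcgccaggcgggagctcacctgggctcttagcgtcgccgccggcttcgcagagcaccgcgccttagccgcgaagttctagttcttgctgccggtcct
KIF2C (chr1:44739587-44739886, plus strand): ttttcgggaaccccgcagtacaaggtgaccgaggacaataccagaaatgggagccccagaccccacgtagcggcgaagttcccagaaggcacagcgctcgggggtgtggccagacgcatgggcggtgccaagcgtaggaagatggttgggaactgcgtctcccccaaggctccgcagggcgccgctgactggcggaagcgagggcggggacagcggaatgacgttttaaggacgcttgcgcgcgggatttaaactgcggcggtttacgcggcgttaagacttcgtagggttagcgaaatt
KIF26A and KIF7, which fell, held GC boxes and neither of the other motifs. The same was true of KIF1A, which fell, and of KIF2C, KIF3C and KIF17, which rose. The GC boxes of KIF2C are in lower case above. The windows of KIF26A and KIF7 are printed with each GC box, on either strand, in capitals.
KIF26A (chr14:104138337-104138636, plus strand): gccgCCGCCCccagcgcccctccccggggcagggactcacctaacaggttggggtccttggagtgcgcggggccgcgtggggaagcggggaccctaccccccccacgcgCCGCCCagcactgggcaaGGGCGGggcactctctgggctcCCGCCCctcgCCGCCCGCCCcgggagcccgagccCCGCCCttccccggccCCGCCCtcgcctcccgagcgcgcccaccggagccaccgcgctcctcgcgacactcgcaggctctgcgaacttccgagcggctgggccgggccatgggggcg
KIF7 (chr15:89655418-89655717, minus strand): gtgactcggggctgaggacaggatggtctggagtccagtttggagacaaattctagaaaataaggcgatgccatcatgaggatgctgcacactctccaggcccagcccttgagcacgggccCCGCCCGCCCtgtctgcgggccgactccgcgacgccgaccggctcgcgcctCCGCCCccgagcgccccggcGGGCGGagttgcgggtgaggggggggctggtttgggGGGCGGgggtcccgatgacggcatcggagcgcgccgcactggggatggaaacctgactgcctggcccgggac

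Levels per length of exon placed the transport motor KIF5B and several mitotic motors at the top of the family. KIF5B, the ubiquitous heavy chain of conventional kinesin, stood at 42.8 ± 1.81 CPM per kilobase of exon in DMSO (SD, n = 3). It was followed by KIF2C, a microtubule depolymerase of centromeres, at 40.7 ± 0.329. KIF20A, which brings Aurora B kinase to the central spindle, at 36.1 ± 1.87, and KIF11, which pushes spindle poles apart, at 35.3 ± 3.21, differed by less than their spread. The same held for KIF4A, a chromosome arm motor, at 28.8 ± 1.16 and KIFC1, a minus-end motor that clusters centrosomes, at 28.3 ± 1.38. Of the 12 highest members, 9 were mitotic, whereas mitotic KIF14 stood at 7.37 ± 0.526. At the other end, KIF26B stood at 0.178 ± 0.00922 CPM per kilobase in DMSO and KIF12, KIF25, KIF6 and mitotic KIF4B below it, KIF4B lowest at 0.0259 ± 0.0172. KIF1A and KIF5A, best known from neurons, stood at 0.821 ± 0.0986 and 1.04 ± 0.135. Exon length is the union of all annotated exons, so genes with long annotated tails, such as KIF5C with 33.151 kilobases, are placed low.

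**Figure D1:**
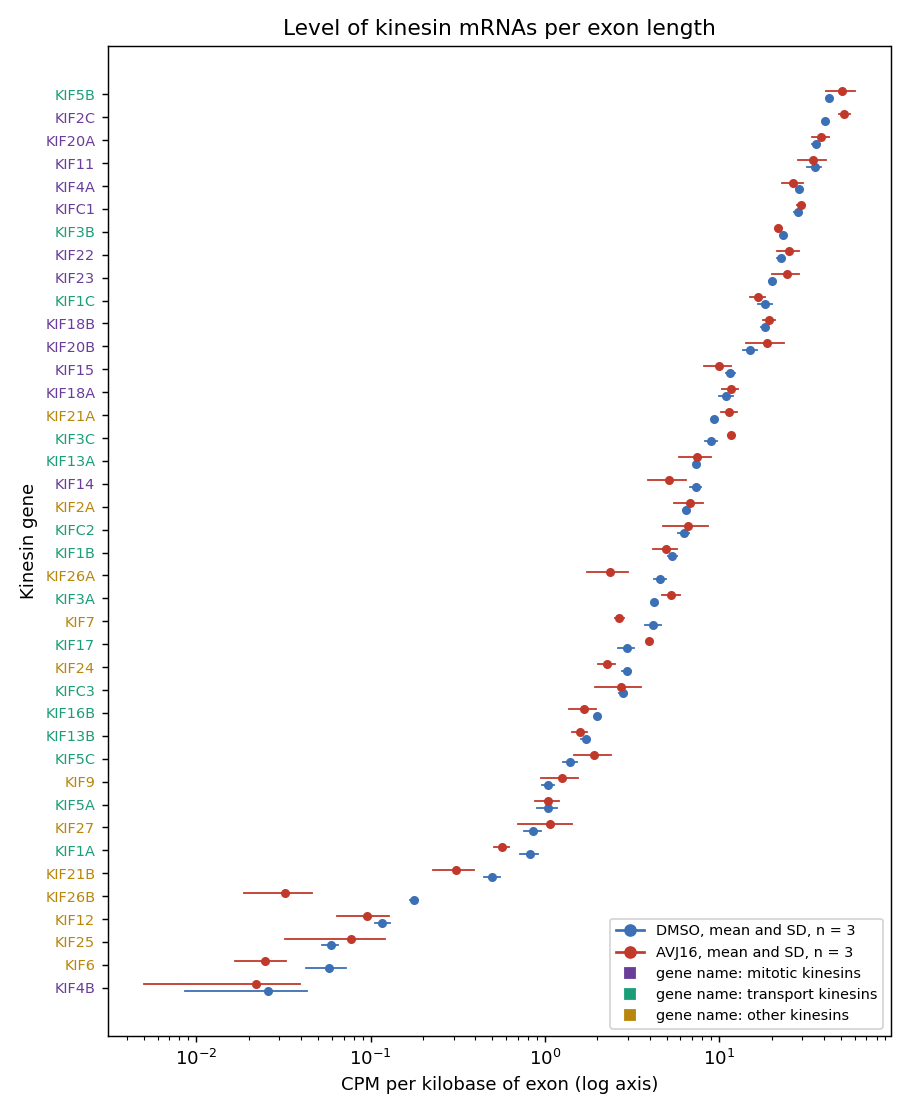
Level of the 40 kinesin mRNAs as CPM per kilobase of exon on a log axis, with the mean and SD of the 3 DMSO libraries (blue) and the 3 AVJ16 libraries (red), ordered by the DMSO mean; gene names are coloured by class. KIF5B is highest at 42.8 in DMSO, and the gap between blue and red is widest for KIF26B.

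KIF4B and KIF12 did not pass the filter on low counts. KIF4B, an intronless copy of KIF4A, had 1, 3 and 4 counts in A, B and C and 4, 1 and 2 in D, E and F. KIF12, a kidney and liver kinesin, had 7, 11 and 8 counts in DMSO and 4, 8 and 11 in AVJ16. Neither was tested, and reads of KIF4A and KIF4B may be split between the copies. KIF2B and KIF19, other kinesins of the textbook family, were not analysed here.

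Across the 38 tested kinesins, 7 passed the threshold. Of the 38, 3 rose (KIF2C, KIF3C and KIF17) and 4 fell (KIF26B, KIF26A, KIF7 and KIF1A), which is 18.4% of the tested members. Of all genes tested, 14.6% were called, 5.87% higher and 8.77% lower in AVJ16. In the family 7.89% were higher and 10.5% lower, close to that background. The median log2 fold change of the family was 0.03, and that of all genes was -0.01. The 3 AVJ16 libraries did not overlap the 3 DMSO libraries for 16 of the 38 members (42.1%), 7 higher and 9 lower, while 37.1% of all genes tested did not overlap. Without library D, 20 of 38 members passed, 9 higher and 11 lower, when 37.2% of all genes did. Leaving out A, B, C, E or F in turn left 2, 2, 3, 4 and 3 members called. Of these 1 was higher, without E, and the rest lower. Of all genes, 824 of 16763, 1013 of 16592, 871 of 16692, 1586 of 16601 and 864 of 16645 were then called. Scaling by library size alone moved the median of all genes to -0.12, and that of the mitotic class with it to -0.03. Then 0 kinesins were higher and 8 lower, beside 523 higher and 2219 lower of the 16330 genes tested.

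**Figure D2:**
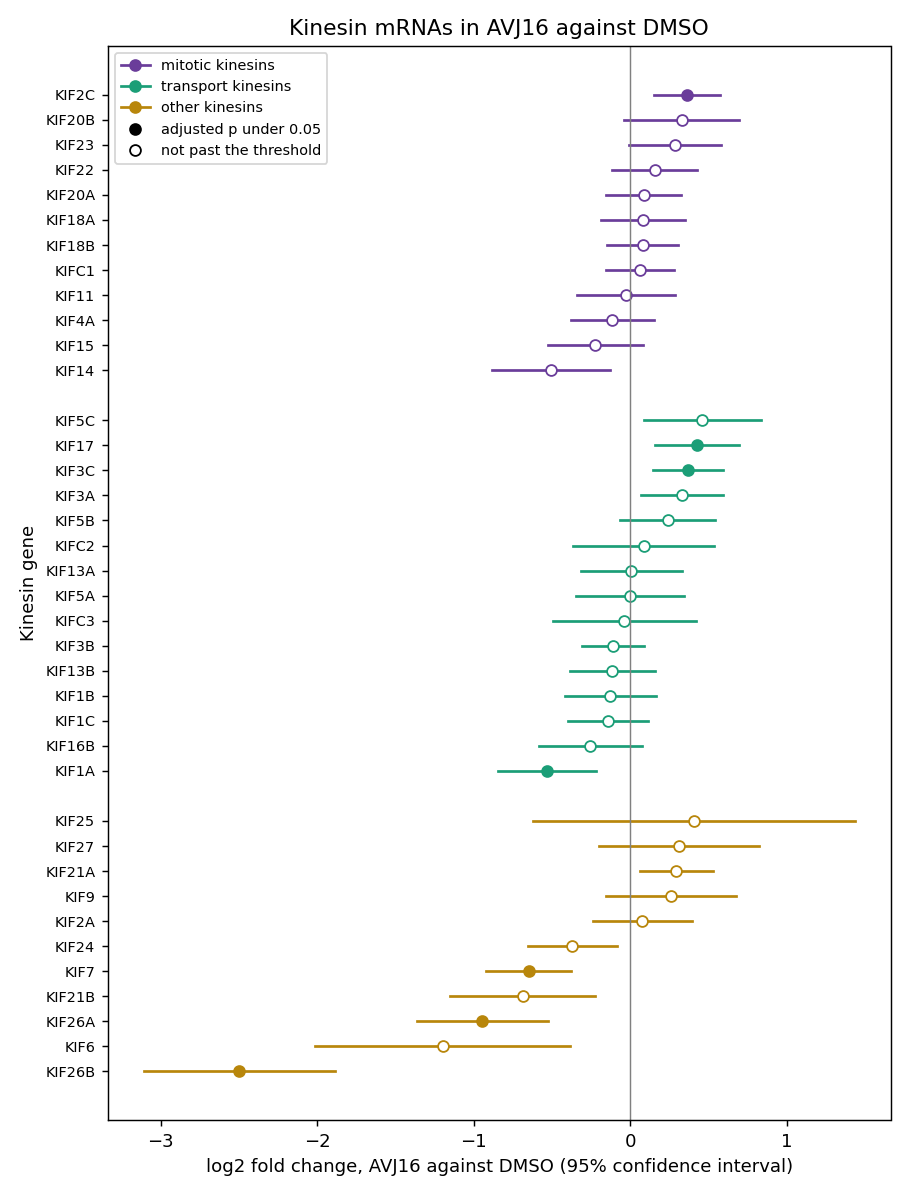
Log2 fold change of each tested kinesin, AVJ16 against DMSO, with its 95% confidence interval; filled points passed an adjusted p of 0.05 and open points did not. The mitotic kinesins lie between -0.51 and 0.36, whereas the 3 called members of the other kinesins lie at -0.65 or lower.

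Of the 12 tested mitotic kinesins 1 rose (KIF2C), 0 fell and 11 did not pass the test, beside 5.87% of all genes higher and 8.77% lower, with a median log2 fold change of 0.08 and a range of -0.51 to 0.36. The summed level of the class was 1316, 1342 and 1363 CPM in A, B and C and 1549, 1338 and 1432 CPM in D, E and F. The highest sum was in D, and E lay within the DMSO range. With library size alone 0 of the class were higher and 1, KIF14, was lower (log2 fold change -0.62, adjusted p = 0.0302). Of the 16330 genes tested, 523 were then higher and 2219 lower. In bulk RNA, fewer cells in a cell cycle phase and less RNA per cell cannot be told apart.

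KIF2C was the mitotic kinesin that passed the threshold. It stood at 148, 150 and 147 CPM in A, B and C and at 177, 190 and 206 CPM in D, E and F, so that every AVJ16 library was above every DMSO library. The log2 fold change was 0.36 ± 0.09 (SE), a rise of 28.6%, with an adjusted p of 0.0332. Scaling by library size alone ended the call, as did leaving out any library but D (adjusted p up to 0.156), and without D it was 0.000632. KIF18B, which partners KIF2C at microtubule plus ends, stood at 82.0 to 88.9 CPM in DMSO and 82.9 to 96.0 in AVJ16 (log2 fold change 0.08, adjusted p = 0.638). KIF18A, which dampens chromosome movements at the metaphase plate, had a log2 fold change of 0.08 with a 95% interval of -0.19 to 0.35.

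The motors of spindle assembly showed no difference that passed. KIF11 stood at 177, 179 and 207 CPM in DMSO and at 221, 155 and 178 CPM in D, E and F. The groups overlapped, with a log2 fold change of -0.03 and an interval of -0.34 to 0.29. KIF15, which can take over from KIF11, stood at 57.5 to 64.4 CPM in DMSO and 44.8 to 62.8 in AVJ16 (log2 fold change -0.22, adjusted p = 0.304), and without D it passed at -0.37 with an adjusted p of 0.00450. KIFC1 differed by 0.06 (interval -0.16 to 0.28), and 13.99% of its exons lie opposite other exons, with RPL12P1 overlapping most. The chromosome arm motors KIF4A and KIF22 had log2 fold changes of -0.11 (interval -0.38 to 0.15) and 0.16 (-0.12 to 0.43). KIF22 passed without D, at 0.27 with an adjusted p of 0.0116.

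The kinesins of cytokinesis split in sign without passing the threshold. KIF14, which recruits citron kinase to the midbody, had 52.1, 51.0 and 58.1 CPM in DMSO and 47.5, 29.2 and 36.9 CPM in D, E and F. All 3 AVJ16 values were below the DMSO values. Its log2 fold change was -0.51 ± 0.17 with an adjusted p of 0.0747, and without D it was -0.70 with an adjusted p of 0.000168. KIF23, the motor of centralspindlin, had 127, 132 and 137 CPM in DMSO and 193, 137 and 153 CPM in D, E and F. The lowest AVJ16 value, in E, exceeded the highest DMSO value by little, and D was far above both others (log2 fold change 0.29 ± 0.13, adjusted p = 0.171). KIF20B, an abscission kinesin, had 101, 95.4 and 114 CPM in DMSO, 167 in D, 112 in E and 111 in F. Only D lay above the DMSO range, and the log2 fold change went from 0.33 to 0.11 without it. KIF20A had a log2 fold change of 0.09 with all libraries and -0.00 without D.

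CENPE, a kinesin-7 of kinetochores whose symbol the rule does not match, differed between the AVJ16 libraries. It had 144, 137 and 155 CPM in DMSO, 198 in D, 122 in E and 121 in F. D was above and E and F were below every DMSO library, and the log2 fold change was 0.02 (adjusted p = 0.963).

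The 15 transport kinesins held 2 members that rose, 1 that fell and 12 that did not pass. Their median log2 fold change was -0.00, against 0.08 in the mitotic class, and the range was -0.53 to 0.46, against -0.51 to 0.36. The share called was 20.0% against 8.33%, which is 3 genes against 1, beside 14.6% of all genes tested. The difference between the classes was not tested. The summed level was 995, 1014 and 991 CPM in DMSO and 1161, 949 and 1043 CPM in D, E and F. As in the mitotic class, D had the highest sum, but here E lay below every DMSO library. Without D, 8 of 15 transport kinesins (53.3%) and 4 of 12 mitotic kinesins (33.3%) passed, beside 37.2% of all genes.

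Among the kinesin-2 motors, which drive anterograde transport in cilia, KIF3C and KIF17 rose. KIF3C stood at 58.1, 61.7 and 53.2 CPM in A, B and C and 72.0, 74.6 and 77.1 CPM in D, E and F. The groups were well separated, with a log2 fold change of 0.37 ± 0.10, a rise of 29.3%, and an adjusted p of 0.0381. KIF17, the homodimeric kinesin-2, stood at 13.2, 14.5 and 11.8 CPM in DMSO and at 17.8, 17.7 and 17.8 CPM in AVJ16. All 3 treated values were above the DMSO values (log2 fold change 0.43 ± 0.12, a rise of 34.5%, adjusted p = 0.0427). Scaling by library size alone ended both calls, as did leaving out any library but D (adjusted p up to 0.165 for KIF3C and 0.175 for KIF17), and that of KIF17 was also lost with no filter. KIF3A, a subunit of the heterotrimeric motor, stood at 28.5, 29.2 and 29.4 CPM in DMSO and 40.6, 32.1 and 36.9 in D, E and F, with no overlap (log2 fold change 0.33 ± 0.12, adjusted p = 0.0894), and passed without D at 0.25 (0.0405). Its partner KIF3B had a log2 fold change of -0.11 with an interval of -0.31 to 0.09.

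KIF1A was the transport kinesin that fell. This carrier of synaptic vesicle precursors stood at 15.8, 15.6 and 12.6 CPM in A, B and C and at 8.95, 10.8 and 10.7 CPM in D, E and F. No AVJ16 value reached a DMSO value (log2 fold change -0.53 ± 0.14, adjusted p = 0.0348). The level fell by 30.8%. The call held under the 7 other scalings, filters and tests and without D, and was lost when any other library was left out, with adjusted p up to 0.159. The related kinesin-3 motors KIF1B and KIF1C had log2 fold changes of -0.13 and -0.14, KIF13A of 0.01, KIF13B of -0.11 and KIF16B, an early endosome motor, of -0.26, and none passed. Without D, KIF16B at -0.37 (adjusted p = 0.0179) and KIF1C at -0.23 (0.0477) did, and KIF13A turned to -0.16 without passing (0.147).

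The heavy chains of conventional kinesin did not pass. KIF5B had 240, 253 and 261 CPM in DMSO and 358, 249 and 283 CPM in D, E and F. E lay within the DMSO range, and the log2 fold change of 0.24 became 0.08 without D. KIF5C had 46.4, 42.2 and 50.6 CPM in DMSO and 80.8, 51.6 and 59.3 CPM in D, E and F. All AVJ16 values were above the DMSO values, with the highest in D (log2 fold change 0.46 ± 0.17, adjusted p = 0.0945). KIF5C passed without D at 0.26 (adjusted p = 0.0472) and also without E at 0.60 (0.0467). KIF5A had a log2 fold change of -0.00 with an interval of -0.35 to 0.34. The minus-end motors KIFC2 and KIFC3 had 19.9 and 17.5 CPM in D, below every DMSO library, whereas in E and F each was above all of its DMSO libraries, at 29.7 to 35.7 CPM. Their log2 fold changes were 0.09 and -0.04. Without D they were 0.30 for KIFC2, which then passed (adjusted p = 0.0175), and 0.19 for KIFC3, which did not (0.115). Exons on the opposite strand, with those of FOXH1 overlapping most, cover 17.8% of those of KIFC2.

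The 11 other kinesins held the largest falls of the family, with 3 that fell, 0 that rose and 8 that did not pass. The 27.3% that fell stood beside 8.77% of all genes called lower. Their median log2 fold change was -0.37. Without D, 8 of 11 (72.7%) passed, 2 higher and 6 lower, beside 37.2% of all genes. With library size alone 6 were lower and 0 higher, when 2219 of the 16330 genes tested were lower. The groups did not overlap for 7 of the 11 (63.6%), 1 higher and 6 lower, beside 37.1% of all genes. KIF21B, KIF24 and KIF6 did not pass although all of their AVJ16 libraries were below all DMSO libraries.

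KIF26B and KIF26A, the kinesin-11 pair that binds microtubules without ATP hydrolysis, both fell. KIF26B, known from mouse kidney development and from WNT5A signalling through ROR receptors, stood at 2.43, 2.70 and 2.59 CPM in A, B and C and 0.685, 0.416 and 0.302 CPM in D, E and F. This rests on 53, 81 and 53 counts in DMSO and 15, 10 and 9 in AVJ16. The groups were far apart (log2 fold change -2.50 ± 0.27, adjusted p = 0.00146), and the level fell by 82.3%. The gene lies on GRCh38 at chr1:245154985-245709432. The call held in all 13 alternative settings, with adjusted p up to 0.0153.

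KIF26A, which in mouse restrains GDNF and RET signalling in enteric neurons, stood at 34.6, 32.9 and 29.4 CPM in DMSO and 11.8, 18.2 and 20.2 CPM in D, E and F. The lowest value was in D, and no value overlapped (log2 fold change -0.94 ± 0.19, adjusted p = 0.0120). The level fell by 48.0%. The gene lies at chr14:104136454-104180894. The call was lost without A (adjusted p = 0.0539) and without B (0.0565) and held in the other 11 settings, and without D the log2 fold change was -0.75. In DMSO KIF26A was the more abundant of the pair, at 4.59 against 0.178 CPM per kilobase.

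KIF7, the Hedgehog regulator that moves to the tip of the primary cilium and controls the GLI factors, stood at 22.2, 25.4 and 20.9 CPM in DMSO and at 13.8, 14.5 and 15.5 CPM in AVJ16. The groups did not overlap (log2 fold change -0.65 ± 0.12, adjusted p = 0.00951), and the level fell by 36.2%. The gene lies on the minus strand at chr15:89608789-89663086. The call held in all 13 alternative settings, with adjusted p up to 0.0489. Exons on the opposite strand, with those of TICRR overlapping most, cover 10.8% of its exons. Whether counting used the strand is not stated in these sources. Its paralog KIF27 stood at 6.19 to 7.43 CPM in DMSO, 11.5 in D and values within the DMSO range in E and F (log2 fold change 0.31, adjusted p = 0.389), and without D the log2 fold change was 0.01.

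**Figure D3:**
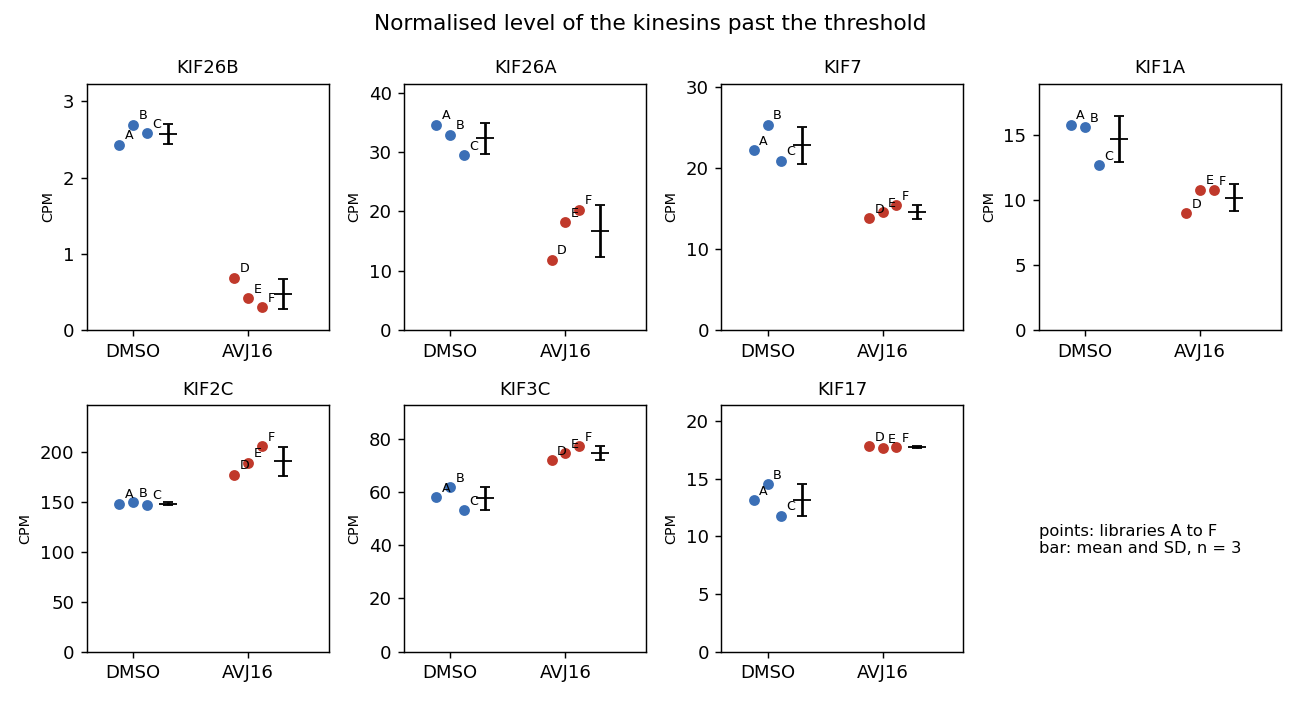
CPM per library of the 7 kinesins that passed the threshold, one panel per gene with its own axis from 0; points are libraries (blue DMSO, red AVJ16) and the bar is the mean and SD of 3. In every panel all AVJ16 points lie on one side of all DMSO points, and the widest gap is in KIF26B, at 0.302 to 0.685 against 2.43 to 2.70 CPM.

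Regulators of microtubule growth differed in sign. KIF21B, which pauses microtubule growth, stood at 5.46, 6.09 and 6.69 CPM in DMSO and 4.20, 2.62 and 4.46 CPM in D, E and F, with no overlap (log2 fold change -0.69 ± 0.21, adjusted p = 0.0546). KIF21A stood at 93.2, 93.2 and 96.3 CPM in DMSO and 129, 106 and 112 CPM in D, E and F, also with no overlap but higher (log2 fold change 0.29 ± 0.10, adjusted p = 0.0895). KIF24, which holds back cilium formation at centrioles, stood at 18.1 to 20.2 CPM in DMSO and at most 16.3 CPM in AVJ16 (log2 fold change -0.37 ± 0.13, adjusted p = 0.0798). These 3 passed without D, at -0.75, 0.21 and -0.44. KIF2A, a depolymerase related to KIF2C, had a log2 fold change of 0.08 with an interval of -0.24 to 0.39. Exons on the opposite strand, with those of DIMT1 overlapping most, cover 18.7% of its exons.

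The cilium kinesins KIF6 and KIF9 and the kinesin-14 KIF25 were of low abundance and measured imprecisely. KIF6 had 0.734, 0.832 and 0.488 CPM in DMSO and 0.228, 0.249 and 0.402 CPM in D, E and F, a log2 fold change of -1.20 with an interval of -2.01 to -0.39 and an adjusted p of 0.0556. Without D it was -1.06 and passed (0.0494). KIF9 had 5.66 to 6.65 CPM in DMSO, 5.62 in D, 9.10 in E and 7.34 in F (log2 fold change 0.26, adjusted p = 0.379), and it passed without D at 0.41 (0.0263). Of its exons 17.8% lie opposite other exons, with KIF9-AS1 overlapping most. KIF25 had at most 0.706 CPM in any library and an interval of -0.62 to 1.44.

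Library D placed many kinesins on another side of DMSO than E and F did. D was above both E and F for 23 of 38 members (60.5%), against 43.4% of all genes tested, and below both for 14 (36.8%), against 43.1%. For 18 of 38 members D and the mean of E and F lay on opposite sides of the DMSO mean. That count was not made over all genes, so it cannot be called particular to kinesins. The difference between D and the mean of E and F on the log2 scale followed GC content. Pearson's r with the GC content of the longest transcript was -0.73 over the 38 members and -0.53 over 16273 genes. It was computed with 0.5 CPM added to every value, as a description over genes of the same 3 libraries. The differences given next have no such addition. AT-rich members such as KIF20B, KIF27 and KIF5C were higher in D, by 0.58, 0.80 and 0.55, and GC-rich members such as KIFC2, KIFC3 and KIF26A were lower in D, by the log2 differences -0.79, -0.82 and -0.70. KIF26B departed from this, with D higher than E and F by 0.95 on few counts. The part of GC content in the differences between groups was not tested. Its r with the log2 fold change itself was -0.28 over the members and -0.07 over all genes.

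**Figure D4:**
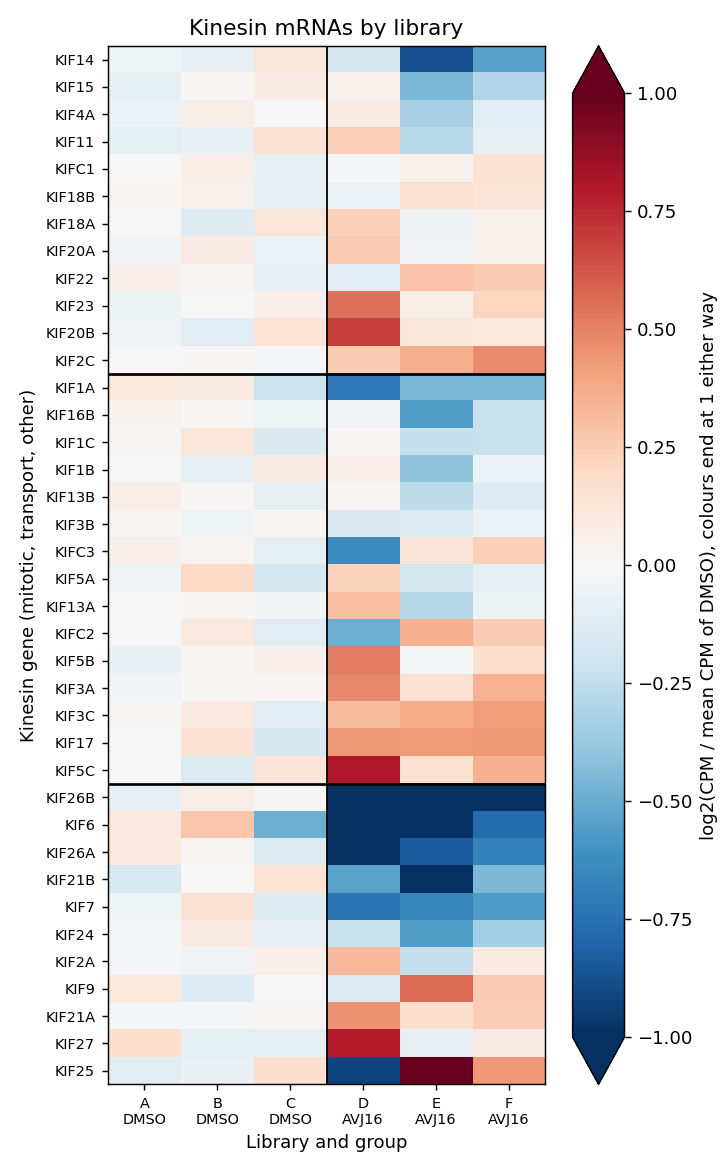
Log2 of CPM over the mean CPM of DMSO for the 38 tested kinesins in each library, with DMSO libraries A to C left of the line and AVJ16 libraries D to F right of it; black lines part mitotic, transport and other kinesins. Colours reach their end at 1 either way, and many members differ in colour between D and both E and F.

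**Figure D5:**
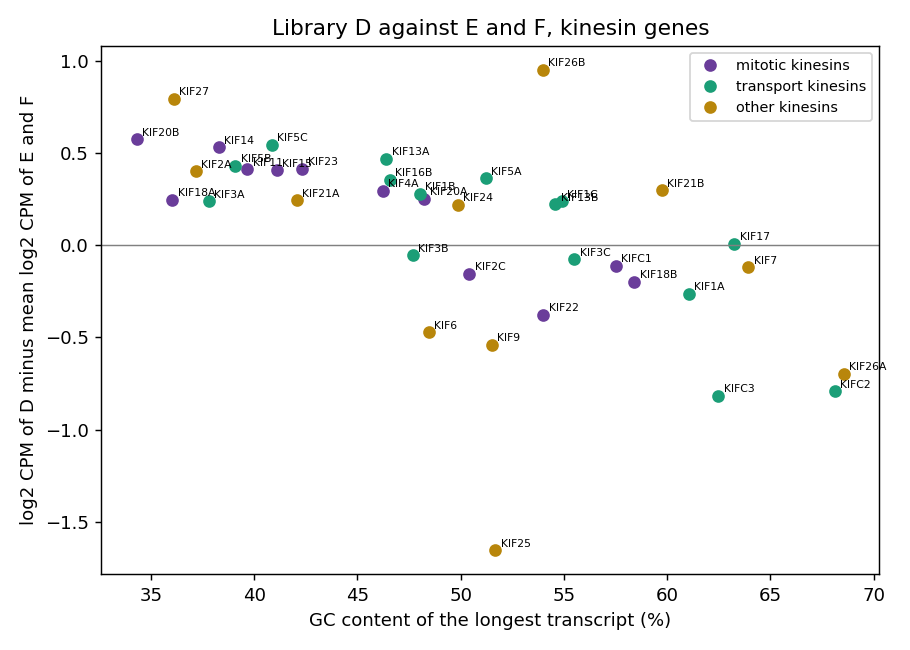
Difference in log2 CPM between library D and the mean of E and F against the GC content of the longest transcript, one point per tested kinesin, coloured by class. The points descend from left to right, with KIF26B above and KIF25 below the rest. The r of -0.73 over 38 genes was computed with 0.5 CPM added to every value, whereas the points have no such addition.

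The companions of the mitotic kinesins were read from lists of textbook partners. Of 28 tested partners, 4 rose and 0 fell, with a median log2 fold change of 0.12. SKA1, a kinetochore protein that holds microtubule ends, stood at 42.2, 37.6 and 44.02 CPM in DMSO and 70.8, 64.3 and 63.5 CPM in AVJ16. All 3 treated libraries were above all controls (log2 fold change 0.68 ± 0.11, adjusted p = 0.00474). KNSTRN, a spindle and kinetochore protein, rose by 0.41 (adjusted p = 0.0209), TPX2, the KIF15 and Aurora A binding factor, by 0.36 (0.0468), and the kinase AURKA by 0.31 (0.0487). The 14.3% of partners called higher stood beside 5.87% of all genes. Without D, 10 of 29 partners passed, 7 higher and 3 lower, beside 37.2% of all genes called. Leaving out any other library left 1 or 2, when 824 to 1586 of all genes were called. With library size alone 1 partner was called, and with upper quartile scaling or no filter 2 were. Of all genes, 2742 (library size), 2295 (upper quartile) and 2253 (no filter) were called.

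Of the other listed genes of G2 and mitosis 5.26% were called, beside 14.6% of all genes. Of 19, PTTG1, which encodes securin, rose by 0.42 (adjusted p = 0.0215), 0 fell, and the median was 0.03. UBE2C and CCNB2 had log2 fold changes of 0.35 (0.0905) and 0.23 (0.142), and the spindle pole gene ASPM of -0.45 (0.126). Of 20 genes of S phase, 6 fell and 0 rose, with a median of -0.31, and all 14 whose libraries did not overlap were lower in AVJ16. Of all genes 8.77% were called lower and 37.1% did not overlap. With library size alone 13 S phase genes fell, when 2219 of the 16330 genes tested were lower. The replication clamp PCNA stood at 167, 174 and 174 CPM in DMSO and 115, 123 and 114 CPM in AVJ16 (log2 fold change -0.55 ± 0.09, adjusted p = 0.00538). GINS1, CDC6 and POLA1, which start replication forks, fell by 0.72, 0.56 and 0.57 on the log2 scale, with adjusted p of 0.00466, 0.00809 and 0.0257. Without D, 9 of the 19 genes of G2 and mitosis and 15 of the 20 of S phase passed, beside 37.2% of all genes. Without A, B, C, E or F, 2 to 4 S phase genes and 0 genes of G2 and mitosis did, when 824 to 1586 of all genes did.

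Among companions of transport kinesins, 13% of cargo adaptors and light chains, 8.33% of dynein genes and 9.52% of intraflagellar transport genes were called. These shares stood beside 14.6% of all genes tested. Of 23 cargo adaptors and light chains, 1 rose and 2 fell, with a median of -0.04. The scaffold MAPK8IP2 fell by 0.79 and the kinesin-1 cofactor MAP7D2 by 0.92 on the log2 scale, while its relative MAP7D3 rose by 0.56 (adjusted p = 0.00752, 0.0182 and 0.0311). For the light chain KLC4 the log2 fold change was 0.32 (adjusted p = 0.0904). Of 24 subunits and cofactors of dynein, the minus-end motor, BICD1 rose by 0.58 (0.0104) and DYNC2H1, the dynein of cilia, fell by 0.59 (0.0138), with a median of 0.09. Of 21 intraflagellar transport genes, which kinesin-2 carries, TTC26 fell by 0.64 (0.0133) and IFT172 by 0.50 (0.0421), 0 rose and the median was 0.01. IFT74 and IFT46 had log2 fold changes of 0.51 (0.0510) and -0.31 (0.122). Without D, 39.1% of the adaptors, 33.3% of the dynein genes and 28.6% of the intraflagellar transport genes passed, beside 37.2% of all genes. Leaving out A, B, C, E or F left 1 or 2 adaptors, 0 to 2 dynein genes and 0 to 2 intraflagellar transport genes. Those settings called 824 to 1586 of all genes.

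Of 13 tubulin genes, which encode the tracks, TUBG2 and TUBB2B rose by 0.71 and 0.65 (adjusted p = 0.0133 and 0.0162) and TUBA1A fell by 0.38 (0.0381), with a median of 0.10. The 23.1% called stood beside 14.6% of all genes. TUBB4B stood at 357 to 432 CPM in DMSO and 274 to 328 CPM in AVJ16, with no overlap (log2 fold change -0.38, adjusted p = 0.0520). Without D, 7 tubulin genes (53.8%) passed, beside 37.2% of all genes. Without A, C or F 0 did, without B 1 and without E 2, when 824 to 1586 of all genes did.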

How the data were processed

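The deposited table held counts per gene of 6 libraries. Per the labels and methods, the authors made stranded poly(A) libraries with a KAPA kit, trimmed single-end reads with cutadapt 2.10, aligned them to GRCh38 with TopHat2 2.1.1, counted them with HTSeq 2.01 and normalised with DESeq2 1.36.0. The smallest sum of counts per gene was 10. The 6 normalised columns were not used. The labels do not give the column letters, so groups were read from the condition bar of the study's heat map, and replicate numbers are unknown. The study states that biological repeats were used for each experiment, without describing how those for RNA-seq were made. The labels do not say that libraries came from separate cultures, so p-values measure only the spread between these samples.

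Counts were tested in edgeR 4.0.16 (limma 3.58.1, R 4.3.3), with filterByExpr (minimum count 10, total 15), TMM, a robust quasi-likelihood fit and a prior count of 0.125 for fold changes, and the script was tested on simulated data. The SE is the absolute log2 fold change divided by the root of F. Exon lengths, overlaps and GC content came from GENCODE 44, and promoters from RefSeq. Members and lists were chosen with earlier results of these data known. All kinesins that passed the filter could be named, and in each companion list the 4 genes of smallest p, plus CENPE. Alternatives were other scalings, no filter, DESeq2 1.42.0, voom with sample weights, and each library left out.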

Additional observations from a re-analysis of the deposited data

How the results depend on the processing

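No paired analysis was possible because the columns carry no replicate numbers. Under voom with sample quality weights, 7136 genes, 20 kinesins, 5 mitotic, 8 transport and 7 other kinesins were called. With library size alone, 1 transport and 6 other kinesins were called, the medians were -0.0312 (mitotic) and -0.12 (transport), and 523 genes were higher and 2219 lower, with a median over all genes of -0.12. Leaving out 1 library at a time gave 824 to 6251 genes, 2 to 20 kinesins, 0 to 4 mitotic, 0 to 8 transport and 2 to 8 other kinesins called, each highest without D, and medians of other kinesins of -0.52 to -0.32. Without D the calls rest on 2 AVJ16 libraries.

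Some log2 fold changes reversed, most of them near 0, and that of KIF27, which was 0.31. With library size alone these were KIF18A -0.0330, KIF18B -0.0294, KIF20A -0.0258, KIFC1 -0.0465, KIF13A -0.11, KIFC2 -0.0160 and KIF2A -0.0392. Under voom they were KIF13A -0.12, KIFC3 0.13, KIF27 -0.0218 and KIF2A -0.00600. KIF5A was at 0.0158 with DESeq2's size factors and at 0.0173 in both DESeq2 tests. Leaving out libraries gave -0.18 to 0.0867 for KIF11, -0.00370 to 0.15 for KIF18A, -0.00206 to 0.15 for KIF20A, -0.16 to 0.14 for KIF13A, -0.14 to 0.10 for KIF5A, -0.0647 to 0.30 for KIFC2, -0.18 to 0.19 for KIFC3 and -0.0666 to 0.21 for KIF2A. The cause was not tested. Upper quartile scaling changed no sign or call among the 38 kinesins, and no filter changed 1 call. KIF26B and KIF7 passed in every setting.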
